A study of Mus musculus with 6 samples.

Results

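The miRNAs described here are 6 that are known from white blood cells and from microglia, the resident macrophages of the retina: mir-142, mir-223, mir-150, mir-155, mir-146a and mir-146b. They were picked by name, and each had a row among the 855 miRNA precursors of the deposited table. The tissue was whole retina of mice aged 4 weeks, of a mixed C57BL/6J and SJL background, and small RNA libraries were sequenced from it. Both groups carried floxed Dicer1 alleles (Dicerfl/fl): the 3 cKO libraries came from mice with the iCre75 transgene and the 3 control libraries from littermates without it. The iCre75 transgene drives Cre from a rod opsin promoter, so that the deletion of Dicer1, the RNase that cuts miRNA precursors to their mature form, is aimed at rods and not at leukocytes or microglia. For every library 6 retinas were pooled. The labels name no step that rinses blood from the vessels, so RNA of circulating cells can be part of each pool, and in whole tissue fewer cells of a type and less RNA per cell cannot be told apart.

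A miRNA silences mRNAs that pair with its seed, the bases 2 to 8 from its 5′ end. The miRNA miR-142 is made in nearly all blood-forming cells and their progeny, microglia included, which makes it a general mark of leukocytes in a solid tissue. In neutrophils and monocytes miR-223 is abundant, and in mature B and T cells miR-150. The other 3 are tied to activation: miR-155 is cut from a long RNA that immune stimulation turns on, and miR-146a and miR-146b are induced by inflammatory signalling through NF-κB and damp it by silencing Traf6 and Irak1.

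The mature sequences of the members are printed to show which of them share a seed, given in capitals (RefSeq, GRCm38.p6, 5′ to 3′; the table was matched by gene symbol, with at least 1 mature arm for each of the 6). Values are per precursor and do not tell the arms apart.
miR-142a-5p: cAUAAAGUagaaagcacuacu
miR-142a-3p: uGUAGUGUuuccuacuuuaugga
miR-223-3p: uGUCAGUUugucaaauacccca
miR-150-3p: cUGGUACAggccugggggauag
miR-155-5p: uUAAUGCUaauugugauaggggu
miR-146a-5p: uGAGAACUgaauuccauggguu
miR-146b-5p: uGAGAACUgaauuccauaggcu

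Among these arms the pair miR-146a-5p and miR-146b-5p had a seed in common, and no other mature mouse miRNA of the RefSeq table carried it. None of the other seeds printed occurred in a second mature miRNA of that table. The 5p arms of mir-146a and mir-146b were identical over their first 17 bases and differed at 2 of 22 positions, written as G18A and U21C (the base of miR-146a-5p first, positions counted from 1 at the 5′ end). The mismatches that the authors' alignment allowed are a setting not given in the sources used here, so reads of one copy may have been placed at the other, and their values are not fully separate measurements. In the GENCODE vM21 annotation (GRCm38), mir-142 lies in an intron of the non-coding Mir142hg, mir-155 in an exon of the non-coding Mir155hg, and mir-146b in an intron of the protein-coding Mfsd13a. The precursor mir-142b lies over mir-142 on the opposite strand, and whether the authors counted by strand is likewise unknown here. Because the files use another build (mm9), no coordinates are given.

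The values are RPKM, reads divided by the precursor's length in kilobases and by the library's total. The totals, recovered from the values themselves, ran from 5480940 to 7478237 reads. RPKM is relative to each library's own total, and mir-182 of rods, the most abundant precursor, stood at 7090000 to 7654000 RPKM in control and at 3699000 to 4512000 RPKM in cKO libraries. Most other precursors shifted the other way: the median of 461 tested precursors was 1.67-fold higher in cKO retina. For this reason each member is given on both scales, as deposited and after median-of-ratios scaling, by which the typical precursor is made equal in all libraries. The question was whether the immune cell miRNAs rose beyond that shift.

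As deposited, mir-150 and mir-142 rose in cKO retina, and mir-146a, mir-146b and mir-155 did not pass the test. Thus 2 of 5 tested members rose, where 69.4% of all tested precursors did, and 0 of 5 fell, where 1.74% did (limma, Benjamini-Hochberg adjusted p below 0.05). At an unadjusted p below 0.05 0 members fell as well, with no count over all precursors. With voom on recovered reads 0 members fell, where 8 of all precursors did. The median log2 fold change was 0.62 over the 5 members and 0.74 over the 461 precursors. Relative to the typical precursor 0 of 5 rose and 0 of 5 fell, where 2.17% and 9.98% of all tested precursors did. At an unadjusted p below 0.05, 0 rose and 1 was lower, but all precursors were not counted at that threshold. With voom on recovered reads 0 members rose and 0 fell, where 9 and 46 of all precursors did. The sixth member, mir-223, had too few reads to be tested.

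**Figure D1:**
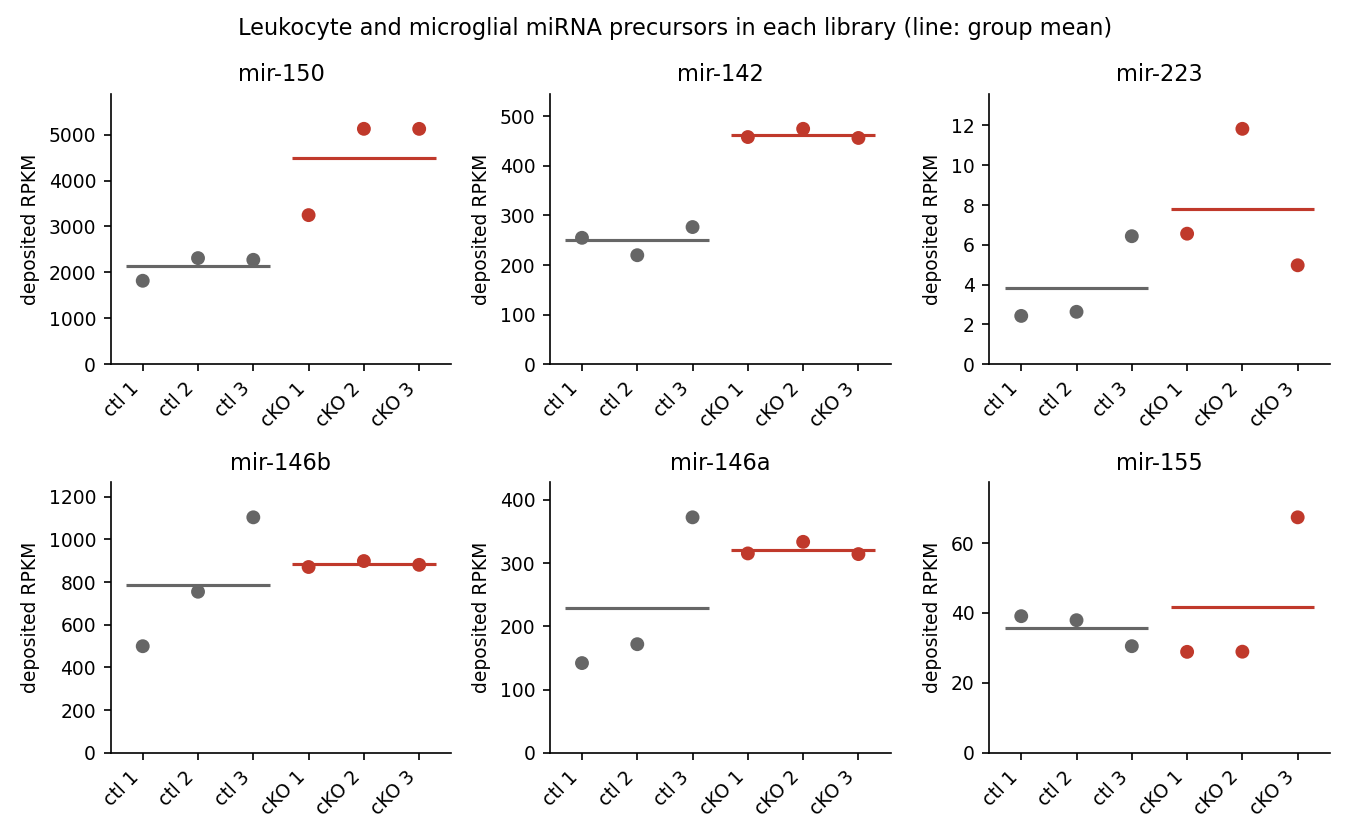
Deposited RPKM of the 6 members (linear axes from 0) in control libraries 1 to 3 (grey) and cKO libraries 1 to 3 (red), with lines at group means. In mir-150 and mir-142, as in 71.6% of tested precursors, every cKO library lies above every control library. In the other 4 members the groups overlap, and control 3 is the highest library for both mir-146 copies.

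The lymphocyte miRNA mir-150 was the most abundant member and ranked 118 among the 855 precursors by mean RPKM. Its level was 1819, 2312 and 2275 RPKM in control 1 to 3 and 3248, 5126 and 5125 RPKM in cKO 1 to 3. The groups did not overlap, as in 71.6% of tested precursors, and cKO 1 stood well below the other cKO libraries. These values rest on 884 to 2304 reads per library, so that the gap between cKO 1 and the others was larger than counting error: the Wilson 95% interval was 3085 to 3418 RPKM in cKO 1 and 4921 to 5340 RPKM in cKO 2. Such intervals hold the counting error of reads alone. They may be too narrow, because amplified reads that carry no molecular identifiers are not separate molecules. The group means were 2135 ± 275 and 4500 ± 1080 RPKM (SD, n = 3 each), a 2.07-fold rise with a 95% interval of 1.53- to 2.81-fold (log2 1.05, SE 0.20; limma adjusted p = 0.0014).

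Set against the typical precursor, mir-150 stood at 2474, 3066 and 2710 scaled RPKM in control and at 2620, 3834 and 3954 in cKO libraries. Now cKO 1 lay inside the control range while cKO 2 and cKO 3 lay above it. The difference of 1.25-fold had a 95% interval of 0.948- to 1.64-fold and did not pass (log2 0.32, SE 0.18; limma adjusted p = 0.25). By fold change mir-150 ranked 96 of 461 as deposited and 102 of 461 after scaling. Under some other scalings its call held: the log2 fold change was 0.54 with quantile normalization (adjusted p = 0.039, with 2.60% of precursors called up) and 0.54 with totals without the 10 most abundant precursors (adjusted p = 0.047, with 12.4% called up). With totals without mir-182 it was 0.45 (adjusted p = 0.12).

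The general leukocyte miRNA mir-142 was lower in level and varied less between libraries. It stood at 255, 220 and 277 RPKM in control 1 to 3 and at 458, 475 and 456 RPKM in cKO 1 to 3, from 97 to 210 reads per library. All cKO libraries were above all control libraries, as in 71.6% of tested precursors. The group means were 250.4 ± 28.6 and 462.9 ± 10.1 RPKM (SD, n = 3 each), a 1.85-fold rise with a 95% interval of 1.47- to 2.33-fold (log2 0.89, SE 0.15; limma adjusted p = 9.2e-04).

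After median-of-ratios scaling mir-142 stood at 347, 291.5 and 329.5 scaled RPKM in control and at 369, 355 and 352 in cKO libraries. The groups still did not overlap, as in 15.0% of tested precursors, but the gap between the highest control and the lowest cKO library was smaller than the counting error of about 10.2% in the library with the fewest reads. The difference of 1.11-fold had a 95% interval of 0.907- to 1.37-fold and did not pass (log2 0.16, SE 0.13; limma adjusted p = 0.49). With upper quartiles set equal, which refers to more abundant precursors, mir-142 and mir-150 passed, with log2 fold changes of 0.50 and 0.66 (adjusted p = 0.029 and 0.021), where 29.1% of tested precursors rose. As deposited, both calls held with each library left out in turn (adjusted p = 0.0016 to 0.0058 for mir-142 and 5.7e-04 to 0.0074 for mir-150).

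**Figure D2:**
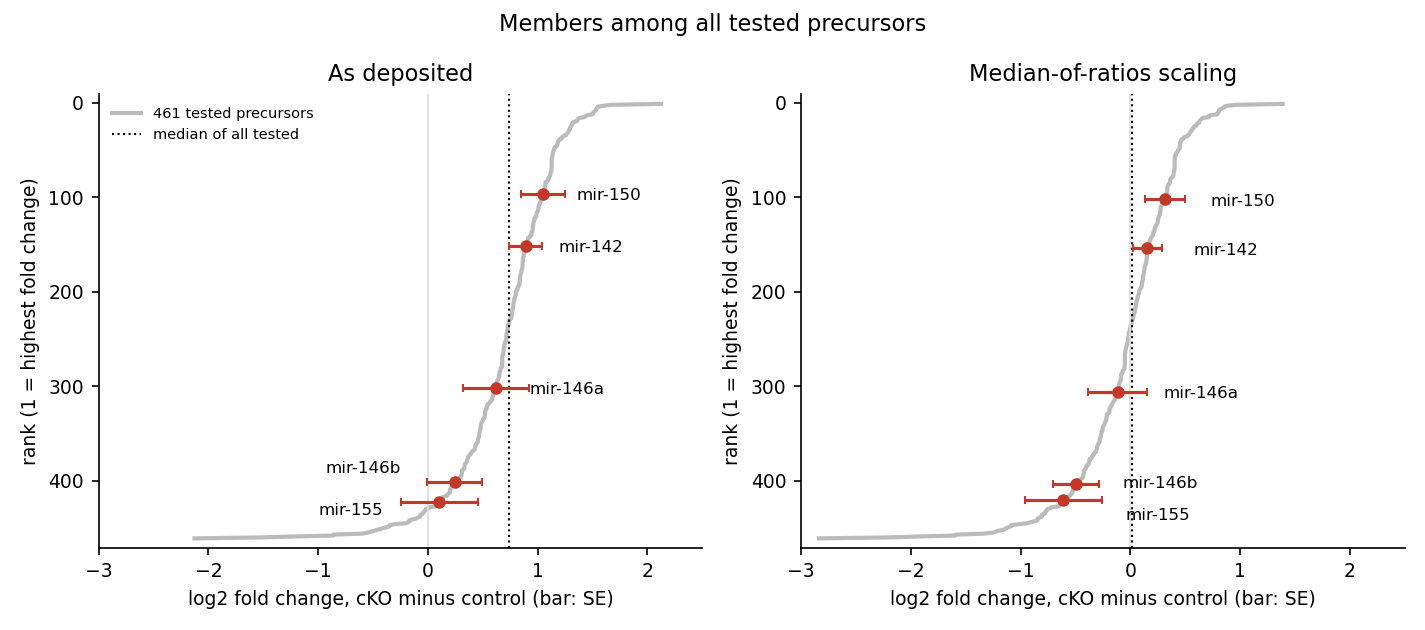
Log2 fold change (cKO minus control) of the 461 tested precursors in order of rank (grey line), with the 5 tested members in red (bar, SE) and the median of all tested precursors as a dotted line. On either scale mir-150 and mir-142 lie above the median and mir-146a, mir-146b and mir-155 below it.

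The myeloid miRNA mir-223, abundant in neutrophils, was at the edge of detection. It had 2, 2 and 5 reads in control 1 to 3 and 5, 9 and 3 reads in cKO 1 to 3, or 2.43 to 6.44 RPKM in control and 4.98 to 11.8 RPKM in cKO libraries. The groups overlapped, with control 3 above cKO 3. Summed reads were 9 in control (exact Poisson 95% interval 4.12 to 17.1) and 17 in cKO retina (9.90 to 27.2), and the intervals overlapped. With every precursor above 0 in the fit its log2 difference was 0.88 (SE 0.49; limma adjusted p = 0.16), so a difference was not detectable at this depth. After median-of-ratios scaling the means of mir-223 were 4.82 scaled RPKM in control and 5.99 in cKO libraries, with a log2 difference of 0.28 and no test. Its mean over all libraries was 5.81 RPKM as deposited, against 3317 RPKM for mir-150.

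Of the activation-linked miRNAs, mir-155 was close to that floor as well. It stood at 39.1, 37.9 and 30.5 RPKM in control 1 to 3 and at 28.9, 28.9 and 67.4 RPKM in cKO 1 to 3, from 13 to 24 reads per library. Thus cKO 3 was the highest of the 6 libraries while cKO 1 and cKO 2 were the lowest. Reads summed to 50 in each group. As deposited the difference was 1.08-fold with a 95% interval of 0.630- to 1.84-fold (log2 0.10, SE 0.35; limma adjusted p = 0.79). Relative to the typical precursor it was 0.655-fold with an interval of 0.379- to 1.13-fold (log2 -0.61, SE 0.35; adjusted p = 0.27). Its sign rested on single libraries: the deposited log2 difference was -0.29 without cKO 3 (adjusted p = 0.40) and -0.0042 without control 3 (adjusted p = 1.0).

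Both copies of mir-146 were set apart by their control libraries. The value of mir-146a was 141.95, 171.83 and 372.56 RPKM in control 1 to 3 and 315, 334 and 314 RPKM in cKO 1 to 3. Its more abundant copy mir-146b stood at 499, 755 and 1103 RPKM in control 1 to 3 and at 870, 898 and 880 RPKM in cKO 1 to 3. In both copies control 3 was above every cKO library and the other control libraries were below every cKO library.

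The cKO libraries were close together, with a coefficient of variation of 3.39% for mir-146a and 1.60% for mir-146b, against 54.8% and 38.6% in control retina. Reads numbered 69 to 171 for mir-146a and 407 to 849 for mir-146b, so that counting error was about 12.0% and 4.96% in the library with the fewest reads. The spread of the controls was larger than that, and the spread of the cKO libraries smaller.

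As deposited, mir-146a was 1.54-fold higher in cKO retina with a 95% interval of 0.963- to 2.45-fold and did not pass (log2 0.62, SE 0.30; limma adjusted p = 0.087). The difference of mir-146b was 1.18-fold with an interval of 0.811- to 1.73-fold (log2 0.24, SE 0.25; adjusted p = 0.38). Without control 3 both rose, with log2 fold changes of 1.03 and 0.52 (adjusted p = 0.0016 and 0.038), so that 4 of 5 members rose, where 69.8% of all precursors did. Without control 1 mir-146b turned to -0.047 (adjusted p = 0.82).

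Relative to the typical precursor, mir-146a stood at 193, 228 and 444 scaled RPKM in control and at 254, 249.6 and 242.5 in cKO libraries (log2 -0.11, SE 0.27; limma adjusted p = 0.87). On this scale mir-146b stood at 679, 1001 and 1314 in control and at 702, 672 and 679 in cKO libraries. Its difference of 0.711-fold had a 95% interval of 0.510- to 0.991-fold and did not pass after adjustment (log2 -0.49, SE 0.21; adjusted p = 0.18). Without control 1 mir-146b fell by 0.73 (adjusted p = 0.013), where 10.2% of precursors fell. Without control 3 it was at -0.25 (adjusted p = 0.45) and mir-146a at 0.26 (adjusted p = 0.35).

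Of 9 listed precursors of lens and epithelium, 3 were highest among the controls in control 3 (mir-184, mir-31 and mir-203), 5 in control 2 (mir-205, mir-200a, mir-200b, mir-200c and mir-141) and 1 in control 1 (mir-429). The precursor mir-184, known from lens and cornea, was at 8731, 2186 and 52000 RPKM in control 1 to 3 and at 23900, 57210 and 60100 RPKM in cKO 1 to 3. The epithelial mir-31 was at 1494, 212 and 2282 RPKM in control and at 1428, 3268 and 3167 RPKM in cKO libraries. Summed over the 9 precursors, of which 0 were at 0 in every library, the level was 2933 to 54820 RPKM in control and 25990 to 64240 RPKM in cKO retina, and mir-184 alone made up 74.5% to 94.9% of that sum. The part of lens or epithelial tissue in the values of mir-146a and mir-146b was not tested. In scaled RPKM mir-146a was 1.94-fold higher in control 3 than in the higher of control 1 and 2, the fifth largest such step of the 461 precursors. This comparison was chosen after the values were seen. For mir-146b the step was 1.31-fold, for mir-142 it was 0.951-fold and for mir-150 0.884-fold, with a median of 0.891-fold over all tested precursors.

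**Figure D3:**
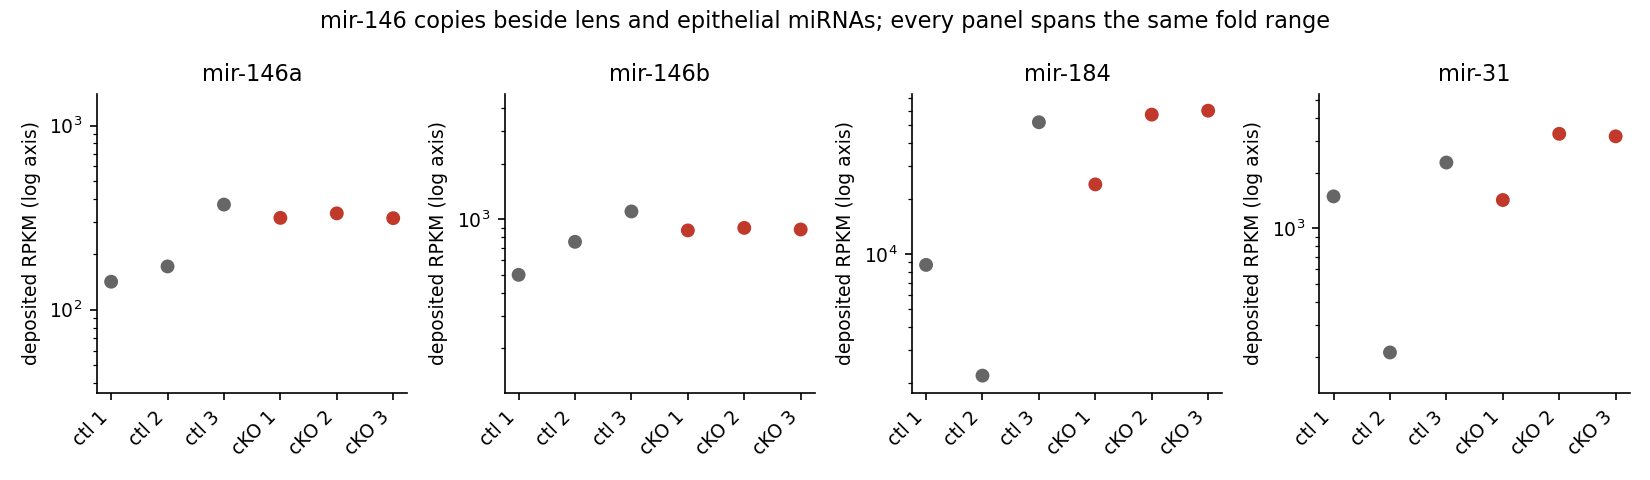
Deposited RPKM (log axes that span the same fold range in every panel) of mir-146a, mir-146b, mir-184 and mir-31 in control (grey) and cKO (red) libraries 1 to 3. Control 3 is the highest control library in each of the 4 panels, and control 2 is the lowest for mir-184 and mir-31 but not for the mir-146 copies.

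Ratios of 2 precursors within a library do not depend on the scaling, and 6 were computed. The ratio of mir-150 to mir-142, which sets a lymphocyte miRNA against a general leukocyte miRNA, was 7.13, 10.5 and 8.22 in control 1 to 3 and 7.09, 10.8 and 11.2 in cKO 1 to 3. The groups overlapped, with cKO 1 the lowest of the 6 libraries (fold 1.12; exact two-sided permutation p = 0.6, adjusted p = 0.72). The ratio of mir-146b to mir-146a was 3.52, 4.39 and 2.96 in control and 2.76, 2.69 and 2.80 in cKO libraries. This RPKM ratio is lower than the ratio of reads, because mir-146b is 109 bases long and mir-146a 65. Here all cKO libraries were below all control libraries (exact two-sided permutation p = 0.1, the smallest that 3 against 3 allow; adjusted p = 0.3).

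Against mir-451a, a miRNA of red cells, the groups overlapped for both leukocyte miRNAs. The ratio of mir-150 to mir-451a was 12.9, 12.5 and 10.8 in control and 9.81, 13.8 and 11.6 in cKO libraries (exact two-sided permutation p = 0.8, adjusted p = 0.8). The ratio of mir-142 to mir-451a was 1.81, 1.19 and 1.31 in control and 1.38, 1.28 and 1.03 in cKO libraries (exact permutation p = 0.5, adjusted p = 0.72). Red cell precursors summed to 16550 to 19360 RPKM in control and 26670 to 31080 RPKM in cKO retina. Of these 3 precursors 2 rose as deposited, where 69.4% of all tested precursors did. They were mir-486 at 1.66-fold and mir-451a at 2.14-fold (limma adjusted p = 9.9e-04 and 0.0010). After scaling 0 rose, where 2.17% of all tested precursors did. Most precursors shared the deposited rise, and the part of blood in the values of mir-150 and mir-142 was not tested.

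Against mir-126 of endothelial cells, mir-142 was lower in every cKO than in every control library, though this difference did not pass. The ratio was 0.0464, 0.0320 and 0.0309 in control and 0.0243, 0.0275 and 0.0255 in cKO libraries, with no overlap (fold 0.719; exact two-sided permutation p = 0.1, adjusted p = 0.3). For mir-150 the groups overlapped, at 0.331, 0.336 and 0.254 in control and 0.172, 0.297 and 0.287 in cKO libraries (exact permutation p = 0.4, adjusted p = 0.72). The precursor mir-126 itself rose 2.58-fold as deposited and 1.55-fold after scaling (limma adjusted p = 3.1e-04 and 0.020). Of 5 tested vascular precursors it was the only 1 to rise after scaling, and their median log2 fold change was then -0.09. The ratios to mir-126 therefore do not stand for vascular precursors in general.

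**Figure D4:**
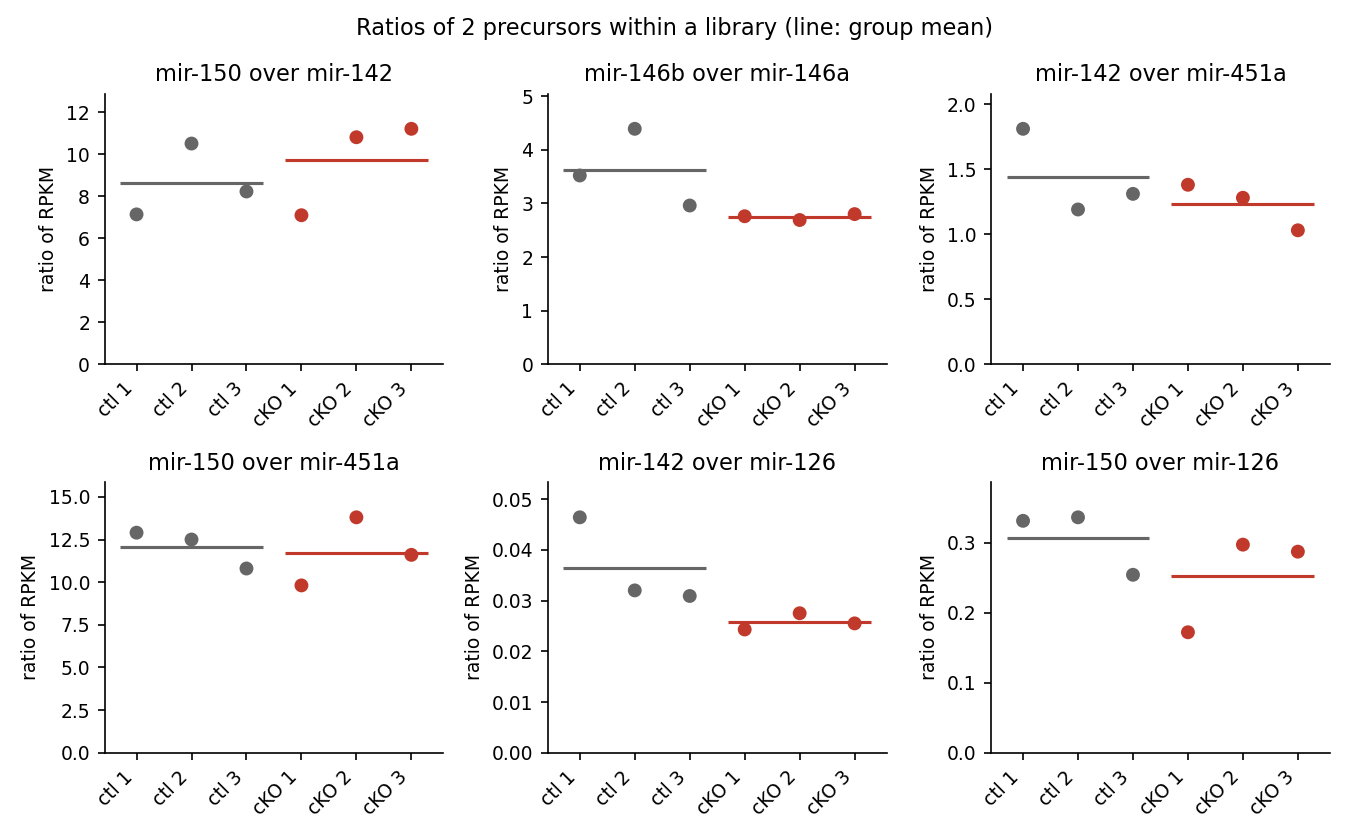
Ratios of RPKM between 2 precursors (linear axes from 0) in control (grey) and cKO (red) libraries 1 to 3, with lines at group means. The groups do not overlap for mir-146b over mir-146a and for mir-142 over mir-126, and they overlap for the other 4 ratios.

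A second list held 11 other precursors with known roles in immune cells, though most of them are also made in neurons, glia or vessels. Of 9 that were tested, 7 rose as deposited, 0 fell and 2 did not pass, with a median log2 fold change of 0.72, close to the 69.4% of all tested precursors that rose and their median of 0.74. Its most abundant precursor, mir-125b-2, known from macrophages as well as neurons, rose 1.65-fold (limma adjusted p = 0.0025). The values of mir-125b-2 ran in step with those of mir-125b-1 over the libraries, so the 2 are not fully separate measurements. After scaling 0 of 9 rose and 1 of 9 fell, where 2.17% and 9.98% of all tested precursors did. The 1 that fell was mir-21a, a miRNA of activated macrophages and glia. It was at 7202, 7287 and 7235 RPKM in control and at 6799, 6375 and 6507 RPKM in cKO libraries. As deposited this difference of 0.906-fold did not pass (limma adjusted p = 0.29). Relative to the typical precursor mir-21a fell by 0.88 on the log2 scale (limma adjusted p = 0.0021). The macrophage miRNAs mir-511 and mir-147 were below the test's minimum, at 0 to 3.66 and 1.69 to 6.93 RPKM.

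Markers of the other cell types of a retina pool were counted in the same way. As deposited, 69.4% of all tested precursors rose and 1.74% fell. On that scale 5 of 5 tested vascular precursors rose (mir-143 at 1.56-fold), as did 2 of 2 of pigment epithelium (mir-204 at 1.94-fold). Of muscle 2 of 4 rose (mir-133a-1 at 1.57-fold), and of lens and epithelium 1 of 8 (mir-203 at 1.83-fold). Of 3 precursors of rods and sensory cells 2 fell, and 3 of 3 copies of the neuronal mir-124 did not pass. The 2 muscle precursors that rose ran in step over the libraries, as did mir-199a-1 and mir-199a-2 of the vascular list. So did the 2 of pigment epithelium and the 3 copies of mir-124, so that none of these groups holds fully separate measurements. After median-of-ratios scaling, where 2.17% of all tested precursors rose and 9.98% fell, 1 vascular precursor rose (mir-126), 3 of 3 of rods and sensory cells fell (mir-182, mir-96 and mir-183) and 3 of 3 copies of mir-124 fell, by 0.81 each. None of the red cell, pigment epithelium, muscle or lens and epithelial precursors passed on that scale, as none of the 5 members did.

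The members did not all vary together from library to library. Over the 6 libraries, in scaled log2 values, Pearson's r was 0.77 between mir-146a and mir-146b, 0.059 between mir-142 and mir-150, and -0.65 between mir-142 and mir-146b. The precursors most like mir-142 were mir-323, mir-3085 and mir-495 (r = 0.97, 0.96 and 0.96), and those most like mir-150 were mir-344d-1, mir-344d-2 and mir-5105 (0.92, 0.92 and 0.91). For mir-146b they were mir-191, mir-183 and mir-3074-2 (0.92, 0.90 and 0.89), for mir-146a mir-195b, mir-1196 and mir-188 (0.77, 0.75 and 0.74), and for mir-155 mir-452, mir-3057 and mir-1191 (0.91, 0.90 and 0.85). These are descriptions over 6 libraries that share a genotype contrast, taken as the highest of all tested precursors.

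**Figure D5:**
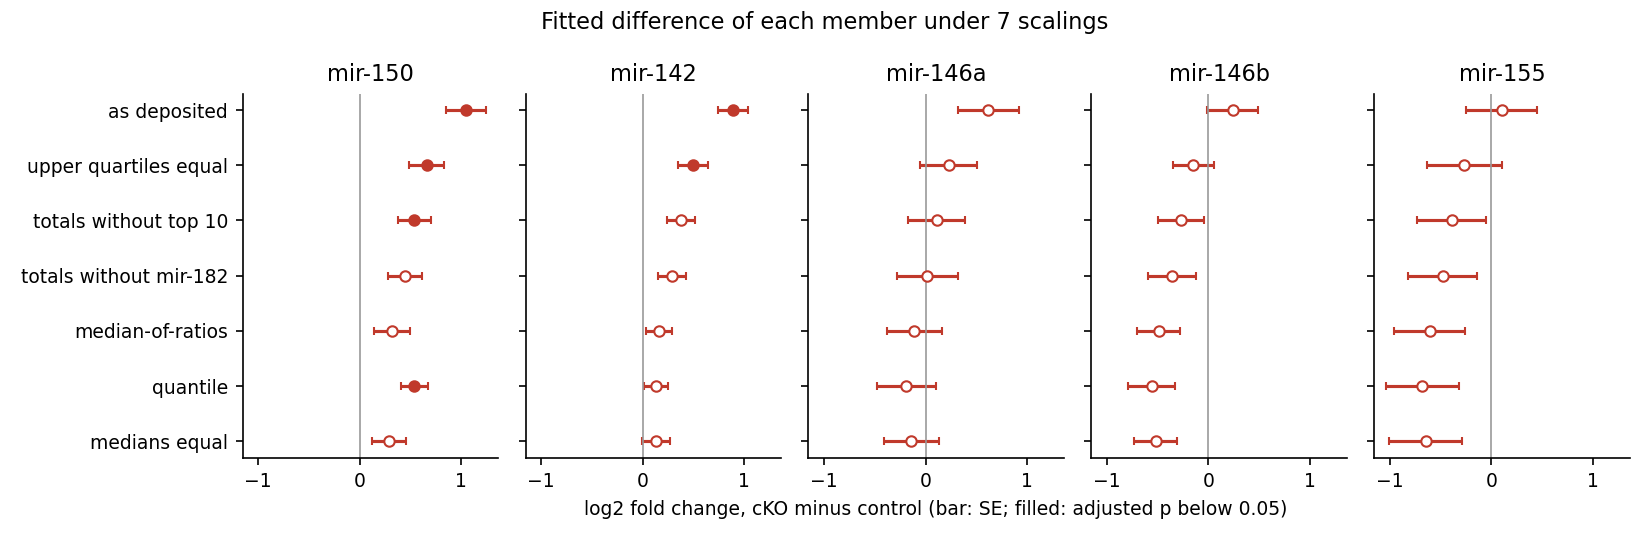
Fitted log2 fold change (cKO minus control; bar, SE; filled points, limma adjusted p below 0.05) of the 5 tested members under 7 scalings. The values of mir-150 and mir-142 lie above 0 under each of the 7, while mir-146b and mir-155 lie above 0 as deposited and below 0 under the other 6.

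In order of mean level over all 6 libraries the members stood at 3317 RPKM for mir-150, 834 for mir-146b, 357 for mir-142, 275 for mir-146a, 38.8 for mir-155 and 5.81 for mir-223. RPKM is divided by precursor length, which was 109 bases for mir-146b, 110 for mir-223 and 64 or 65 for the others. In control retina mir-142 and mir-146a stood at 250.4 ± 28.6 and 229 ± 125 RPKM (SD, n = 3 each), a difference that was not tested.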

How the data were processed

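The authors deposited RPKM values of 6 small RNA libraries (3 control, 3 cKO). Each took, per the labels' protocols, 1 µg of total RNA and 11 rounds of PCR, and reads were 50 bases long. Per the submitters' processing notes Bowtie and mm9 were used. Version, annotation and multi-mapping rule: not given in the sources used here. Multiplying RPKM by precursor length gave whole reads for 100.0% of 3270 values above 0 (tolerance 0.01 reads) and each library's total. Precursor lengths came from RefSeq for 831 precursors, with 20 more inferred.

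The test was limma 3.58.1 under R 4.3.3 (trend, two-sided) on log2(RPKM + 1), over the 461 precursors whose mean reached 10 RPKM, with Benjamini-Hochberg adjustment over them all, as deposited and after median-of-ratios scaling. Fold changes on this scale understate those of low precursors. Intervals of fold changes are limma's 95% intervals. Replicates are biological per the labels, without saying which mice each pool held. The fit was tested on simulated data. Alternatives covered pseudocount, filter, variance model, library weights, scaling, a replicate block and left-out libraries, and voom on recovered reads was added after seeing the data. All members are named. Of the side lists, the naming rule took the most abundant tested precursor and those past the threshold after scaling. Others (mir-451a, mir-31, mir-203, further lens and epithelial precursors, mir-199a-1, mir-199a-2, mir-511, mir-147 and mir-125b-1) were named after their values were seen. Members and lists were chosen with earlier results of these data known.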

Additional observations from a re-analysis of the deposited data

How the results depend on the processing

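As deposited, mir-142 stood at 0.89 on the log2 scale and lost its call at 0.16 with median-of-ratios scaling, 0.13 with quantile normalization, 0.38 with totals without the 10 most abundant precursors and 0.29 with totals without mir-182. The call of mir-150 (1.05) was lost at 0.32 with median-of-ratios scaling and 0.45 without mir-182. In the same order of 4 scalings, mir-155 turned to -0.61, -0.68, -0.39 and -0.48, and mir-146b to -0.49, -0.56, -0.27 and -0.36. With the first 2 scalings mir-146a turned to -0.11 and -0.19. The number of members that rose was 2 as deposited, and 0, 1, 1 and 0 under the 4 scalings. All precursors that rose numbered 320 as deposited and 10, 12, 57 and 22 under them, and those that fell 8 and 46, 29, 29 and 33. Relative to the typical precursor, upper quartiles set equal gave 2 members that rose (mir-142 at 0.50, mir-150 at 0.66), turned mir-146a to 0.23, and gave 134 that rose and 23 that fell over all precursors. With library weights mir-146b fell by 0.68, so that 1 member fell (adjusted p = 0.015), where 56 of the 461 tested precursors did. For these changes the cause was not tested.

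With each library left out in turn, as-deposited values ran from 0.80 to 0.96 for mir-142, 0.94 to 1.27 for mir-150, 0.34 to 1.03 for mir-146a, -0.047 to 0.52 for mir-146b, -0.29 to 0.30 for mir-155 and 0.57 to 1.24 for mir-223. In these fits 2 to 4 members rose, where 252 to 322 of the 461 tested precursors did. Without control 3 mir-155 was at -0.0042. Relative to the typical precursor the values ran from 0.072 to 0.22, 0.20 to 0.50, -0.34 to 0.26, -0.73 to -0.25 and -1.01 to -0.39 for the first 5 members. On this scale 0 to 1 members fell, where 28 to 47 of all tested precursors did.

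Same-numbered libraries correlated at 0.187, 0.264 and 0.00934 in their deviations from group means, and differently numbered ones at -0.217 to 0.0479. Control 3 correlated about equally with cKO 1 (0.0145) and cKO 3 (0.00934). These values do not settle whether the numbers pair the libraries. With the replicate number as a block, mir-146a passed at 0.62 (adjusted p = 0.046), so that 3 members rose, and 338 precursors rose and 10 fell as deposited, and 16 and 46 after scaling. Depth limits mir-223 and mir-155, with 2 to 24 reads per library.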
